A study of Oryza sativa with 4 samples.

Results

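The gene expression of young rice panicles was compared between a wild type array and an array of an OsAGO2 antisense line, both of the 2013 season. The comparison holds the 2 arrays titled for 2013 of the 4 arrays of the series, 1 array of each genotype, chosen by their titles. The groups are WT (the rice cultivar ZH11) and ago2-1 (plants with an antisense construct against OsAGO2), both as panicles taken before stage 5 from plants in the field under normal conditions in 2013. The same genotypes in 2014, again with 1 array each, served as a check. The sources used here do not give the antisense promoter, the age of the plants or the number of plants behind an array. With 1 array per group there is no replicate error, so differences are described by their size and no p-value was computed.

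AGO2 is an argonaute, a protein that is guided by small RNAs to silence genes. Jasmonate is a plant hormone made from membrane lipids on wounding, herbivory, touch and cold, and it is also needed for anther and floret development. Its active form joins the receptor COI1 to JAZ proteins, which belong to the TIFY family and repress the response. The JAZ proteins are then degraded and transcription factors of the bHLH and MYB families are set free. Many JAZ genes are themselves targets of these factors, so their transcripts rise within a short time of a stimulus and act as a brake. Calcium sensors, MAP kinases and the DREB and WRKY transcription factors are other early parts of the response to cold, wounding and elicitors, whereas the dehydrins and other late embryogenesis abundant proteins follow abscisic acid and drying.

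The values are probe set intensities, here given as log2 levels, and a difference is the level on the array labelled ago2-1 minus that on the WT array of the same year. A difference of 1.00 is 2-fold, and 2-fold is the limit used for calling a probe set or gene lower or higher. The 2 arrays of 2013 had median intensities of 29.1 (WT) and 28.8 (ago2-1), and those of 2014 had 45.3 and 45.2. Sorted values of the 2 arrays of 2013 differed by at most 0.12 log2, while the 2014 arrays were brighter by a median of 0.65, so the years are set side by side only through their differences or after quantile scaling of the 4 arrays. The files give no background measure. Levels under 6 are called dim here, and their differences are the least certain.

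The targeted gene was not lower on the array labelled ago2-1. AGO2 (LOC4336991) had a level of 9.54 on the WT array and 9.62 on the array labelled ago2-1 in 2013, and of 10.53 and 10.98 in 2014. A close relative in the argonaute family, AGO3 (LOC4336992), had 7.42 and 7.20 in 2013, and 8.39 and 7.92 in 2014. Whether these probe sets also read the antisense transcript was not tested. The arrays are therefore called by their labels throughout.

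A minority of the jasmonate and stress genes, among them most TIFY10 and TIFY11 repressors and DREB1 factors, stood at least 2-fold lower on the array labelled ago2-1 than on the WT array of 2013, while most members of these lists were under 2-fold apart. Of all 57194 probe sets, 910 were at least 2-fold lower on the array labelled ago2-1, which is 1.59%, and 424 were at least 2-fold higher, 0.741%. At 4-fold the counts were 214 lower and 78 higher, at 8-fold 77 and 32, and at 16-fold 28 and 12. Taking for each of the 17905 annotated genes the probe set with the highest level, 570 genes were lower (3.18%) and 197 were higher (1.1%). The median difference over these genes was 0.03. In the 2014 pair 168 probe sets were lower (0.294%) and 207 higher (0.362%), or 79 genes lower (0.441%) and 85 higher (0.475%). The spread of the differences over all probe sets, given as an SD across features and not across replicates, was 0.41 in 2013 and 0.28 in 2014.

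One array stood apart from the other 3 on more probe sets than any other. After quantile scaling of the 4 arrays together, 629 probe sets were at least 2-fold above all of the other 3 arrays on the WT array of 2013. The same count was 78 for the array labelled ago2-1 of 2013, 15 for the WT array of 2014 and 50 for the array labelled ago2-1 of 2014. In the other direction, 108 probe sets were at least 2-fold below the other 3 arrays on the WT array of 2013, against 34, 36 and 58. Of the 910 lower probe sets, 846 had their highest level of the 4 on the WT array of 2013, and 625 lay there by 2-fold. These probe sets were taken for a high WT level against the array labelled ago2-1, which favours that order, so the count is a description. The array labelled ago2-1 had the lowest level of the 4 on 306 of them and lay 2-fold below the other 3 on 34. Since the WT array of 2013 is the only wild type array of that year, no difference of 2013 can be given without it. Genotype, array and the condition of the sampled panicles cannot be told apart from this pair.

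**Figure D1:**
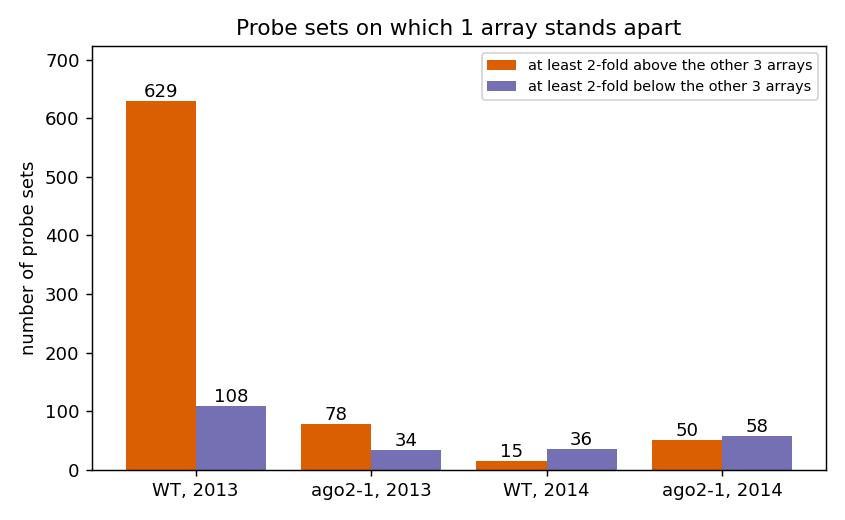
Number of probe sets (y axis) on which each of the 4 arrays (x axis) lay at least 2-fold above or at least 2-fold below all of the other 3 arrays, after quantile scaling of the 4 arrays. The WT array of 2013 has 629 probe sets above and 108 below, more than any of the other 3 arrays in either direction.

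The check in 2014 did not show the same differences for most of these probe sets. Among the 910 lower probe sets, 818 (89.9%) were under 2-fold apart in 2014, 678 (74.5%) were under 0.5 log2 apart, 73 (8.02%) were again lower and 19 were higher. Their median difference was −1.44 in 2013 and −0.12 in 2014. Of all 57194 probe sets, 0.294% were lower and 0.362% higher in 2014, which is the background of these shares and of those that follow. Among the 424 higher probe sets, 335 (79.0%) were under 2-fold apart in 2014, 88 (20.8%) were again higher and 1 was lower. Their median was 1.31 in 2013 and 0.41 in 2014. Whether the larger share of the higher ones differs from that of the lower ones beyond array error was not tested.

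Panicle, green tissue and meiosis markers were under 2-fold apart between the 2 arrays of 2013, while 6 of 7 tapetum markers lay below 0. None of 15 measured panicle markers (floral MADS-box genes, OSH1, DL, LAX1 and RCN1) was 2-fold apart, with a median difference of 0.05 and a range from −0.21 to 0.56. The intensities of these markers summed to 29975 for WT and 32472 for the array labelled ago2-1. None of 7 green tissue markers was 2-fold apart (median 0.20, summed intensity 5268 and 6081), and none of 4 meiosis markers (median 0.07, 2203 and 2307). On the brighter arrays of 2014 the green tissue sums were 34492 (WT) and 31183, and the panicle sums 45797 and 49203. The pair of 2014 thus stood far higher in green tissue signal than that of 2013. What this means for 2014 as a check was not tested. No marker was at 0 on an array, but PAIR1, LAX1, RCN1, C6 and RBCS1 were dim on both arrays of 2013. Of 7 tapetum and pollen wall markers 1 was at least 2-fold lower in 2013 and 2 in 2014, 6 lay below 0 in each year, and the medians were −0.40 and −0.43. RAFTIN1 had −2.14 in 2013 and −1.80 in 2014, CYP703A3 −0.86 and −1.65, and TDR −0.67 and −0.89. Summed intensities of the 7 were 6302 and 4579 in 2013, and 5959 and 4272 in 2014. In a bulk sample fewer cells of a type and less RNA per cell cannot be told apart. All 7 clock genes were slightly higher on the array labelled ago2-1, from 0.07 (LHY) to 0.42 (PRR37). LHY, a clock gene that peaks around dawn, had a level of 6.30 and 6.37 on the 2 arrays of 2013 and of 12.97 and 13.12 on those of 2014. The part of these markers in the differences of 2013 was not tested.

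Over 20 lists of jasmonate and stress genes, 443 genes were measured, of which 56 (12.6%) were at least 2-fold lower on the array labelled ago2-1 in 2013, 17 (3.84%) were higher and 370 were under 2-fold apart. The shares over all annotated genes, with or without a symbol, were 3.18% lower and 1.1% higher and are the background of these counts. Lists were filled by matching gene symbols and synonyms, so the measured members of a family are those so named, not all on the array. The lists were chosen with the pattern known, so the excess is a description. The median over the 443 genes was −0.07, beside 0.03 over all genes, so most members lay near 0 and a minority lay far below it. Among the 341 listed genes with a level of at least 6 on the brighter array, 52 were lower (15.2%) and 16 higher (4.69%), beside 3.56% and 1.11% of all 13833 genes as bright. The 9 lower listed genes that had another probe set had 10 of them in all, each with a difference below 0 and 5 of them at least 2-fold lower.

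**Figure D2:**
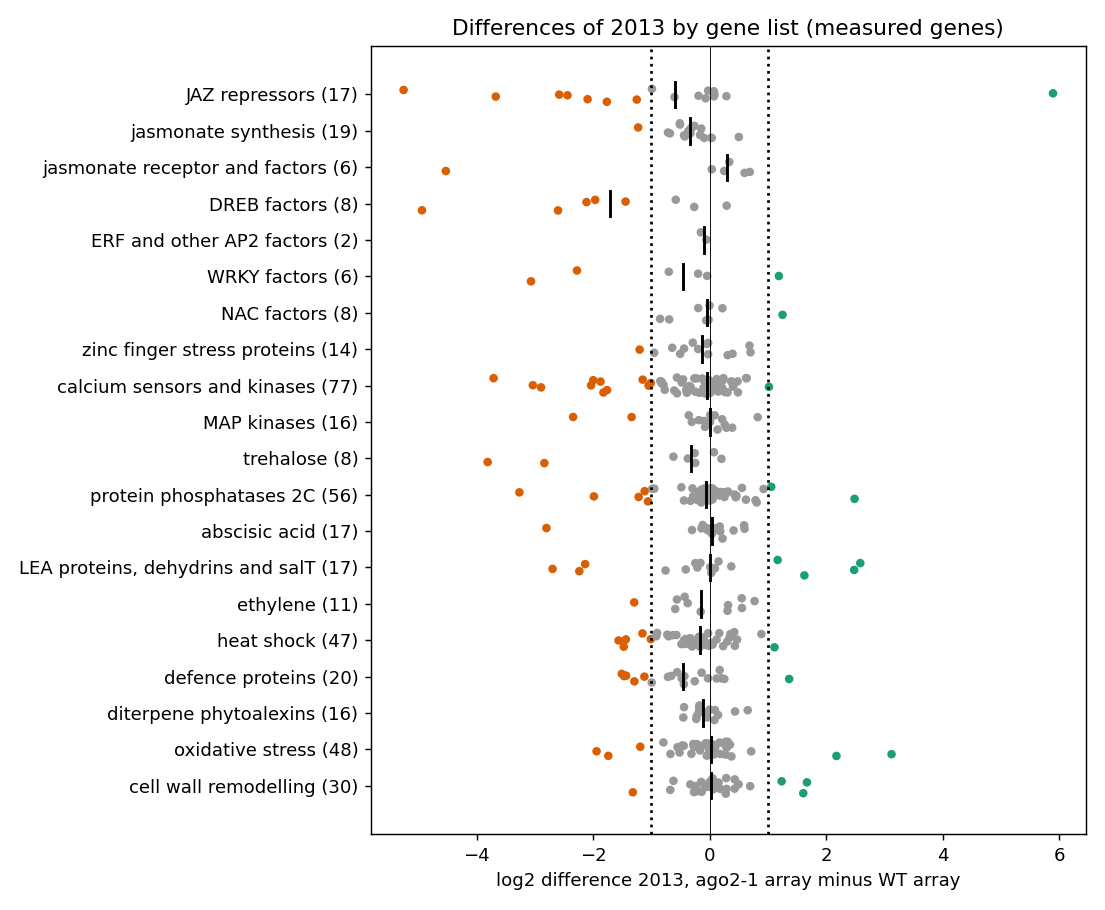
Difference of each measured gene in 2013 (x axis, log2, array labelled ago2-1 minus WT array) in each list of jasmonate and stress genes (y axis, number of measured genes in brackets). Each point is 1 gene, coloured where it lay past 2-fold (dotted lines), and the bar is the list's median. Points past 2-fold lie mostly on the lower side, in particular for JAZ repressors and DREB factors.

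The JAZ repressors held the largest differences among the jasmonate genes. Of 17 measured TIFY genes 7 were lower in 2013 (41.2%) and 1 was higher, with a median of −0.60 against 0.08 in 2014. The list called JAZ repressors takes in the wider TIFY family, so this share and median are not those of JAZ genes alone. It holds TIFY8 and TIFY genes also named GATA, 4 genes of which none was 2-fold apart. All 7 lower ones belong to the TIFY10 and TIFY11 branches, of which 8 genes were measured. These 8 ran from −0.60 to −5.25 in 2013 and from −0.97 to 0.40 in 2014.

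TIFY11E (LOC4348531, named JAZ13 in RefSeq) had a level of 11.59 on the WT array and 6.34 on the array labelled ago2-1 in 2013, against 6.58 and 6.60 in 2014, a 38.1-fold difference in 2013 (−5.25) and none to speak of in 2014 (0.01). TIFY11B (LOC4331834) had 12.30 and 8.63 in 2013 and 8.84 and 9.23 in 2014, a difference of −3.67 and 0.40, and its second probe set gave −3.64 in 2013. For both genes the WT array of 2013 was high and the other 3 arrays were close to each other. TIFY11D (LOC4348533) had 10.34 and 7.76 in 2013 and 6.40 and 6.70 in 2014, a difference of −2.58 and 0.30. TIFY11C (LOC4331833) had 9.76 and 7.32 in 2013 and 5.93 and 5.41 in 2014 (−2.44 and −0.52). For TIFY11D and TIFY11C both arrays of 2013 lay above both arrays of 2014, also on the scaled levels, with the WT array of 2013 highest.

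TIFY10C (LOC4347164) had 9.81 and 7.71 in 2013 and 7.48 and 7.56 in 2014, a difference of −2.09 and 0.08. TIFY11A (LOC4331832) had 11.27 and 9.50 in 2013 and 10.28 and 9.30 in 2014, so that it was lower on the array labelled ago2-1 in both years, by −1.76 and −0.97. TIFY10A (LOC4333065) had 10.45 and 9.20 in 2013 and 9.91 and 10.23 in 2014 (−1.25 and 0.32). Just outside the limit lay TIFY6B, with 9.72 and 8.73 in 2013 (−0.99), followed by TIFY10B, with 12.13 and 11.53 (−0.60). TIFY11A, TIFY11C and TIFY11B are next to each other in the RefSeq gene order with 0 genes between them, and TIFY11E and TIFY11D have 3 genes between them, so joint differences and signal of one copy on the probes of another cannot be told apart here.

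Other TIFY genes did not share the pattern. TIFY3 had 12.70 and 12.68 in 2013 (−0.02), and TIFY6A had 8.66 and 8.75 (0.08). The 4 measured members TIFY1A, TIFY2A, TIFY2B and TIFY8 lay between −0.19 and 0.29. TIFY5 (LOC4342421, named JAZ2 in RefSeq) ran the other way in both years: it had 2.45 for WT and 8.34 on the array labelled ago2-1 in 2013, and 3.95 and 9.59 in 2014, a difference of 5.90 and 5.64. Both arrays labelled ago2-1 were high for TIFY5 and both WT arrays were dim.

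**Figure D3:**
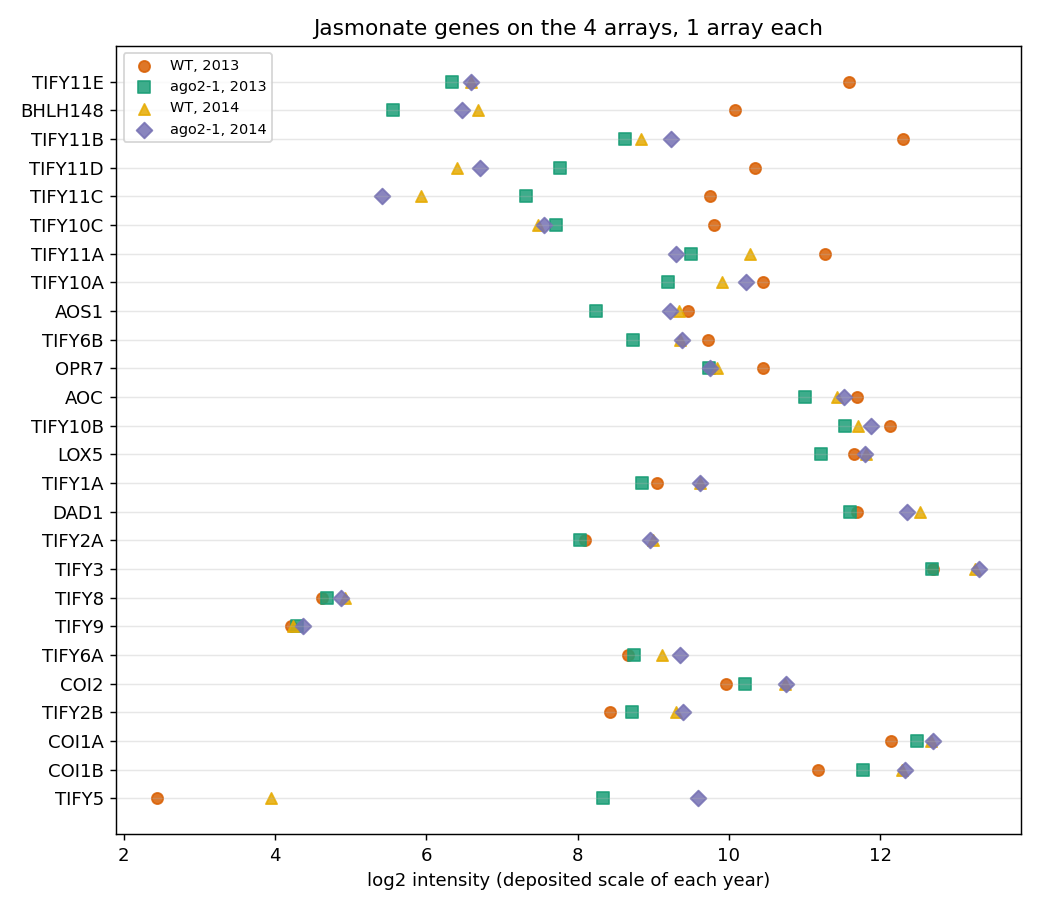
Level of jasmonate genes (x axis, log2 intensity on the deposited scale of each year) on the 4 arrays, 1 point per array, for the 17 TIFY genes and a choice of synthesis and receptor genes (y axis, ordered by the 2013 difference). For the genes at the top the WT array of 2013 lies to the right of the other 3 arrays, from TIFY11E at 11.59 to TIFY10A at 10.45, and for TIFY5 at the bottom both arrays labelled ago2-1 lie to the right of both WT arrays.

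Among the receptors and transcription factors of the jasmonate pathway 1 of 6 measured genes was lower and none was higher. BHLH148 (LOC4334060), a bHLH factor that acts with JAZ proteins in the jasmonate response of rice, had 10.08 on the WT array and 5.55 on the array labelled ago2-1 in 2013, and 6.69 and 6.47 in 2014, a 23.0-fold difference in 2013 (−4.53) and −0.22 in 2014. The WT array of 2013 was again the high one. The 3 COI receptor genes were not lower: COI1A had 12.15 and 12.49 (0.34), COI1B 11.18 and 11.78 (0.60), and COI2 9.96 and 10.21 (0.25). NINJA1, an adaptor between JAZ proteins and co-repressors, had 10.55 and 10.59 (0.04).

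The enzymes of jasmonate synthesis differed less than the repressors. Of 19 measured genes 1 was lower and none was higher, but 16 lay below 0, with a median of −0.33 in 2013 and −0.01 in 2014. Of the 19, 11 were dim, so this lean rests partly on the least certain differences. The share of all genes below 0 was not counted. AOS1 (LOC4334233), an allene oxide synthase of the first committed step, had 9.46 and 8.24 in 2013 and 9.34 and 9.22 in 2014 (−1.22 and −0.12). On the scaled levels the WT array of 2013 was the highest of the 4 for AOS1 and the array labelled ago2-1 of that year the lowest. OPR7, a 12-oxophytodienoate reductase, had 10.45 and 9.74 in 2013 (−0.71), and AOC, the allene oxide cyclase, had 11.69 and 11.01 (−0.68). The lipoxygenase LOX5 had 11.65 and 11.21 (−0.44), and JAR1, which joins jasmonate to isoleucine, had 7.68 and 7.42 (−0.26). Over all 42 genes of the 3 jasmonate lists 9 were lower (21.4%) and 1 higher, with a median of −0.32 in 2013 and 0.03 in 2014. That median rests partly on dim genes, 14 of the 42, and came to −0.046 with intensities under 32 raised to 32.

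DREB factors, AP2 proteins that bind the promoters of cold and drought genes, held several of the larger differences. Of 8 measured genes 5 were lower in 2013 and none was higher, with a median of −1.70 against −0.14 in 2014. DREB1G (LOC4330306) had 9.35 on the WT array and 4.41 on the array labelled ago2-1 in 2013, and 6.29 and 4.64 in 2014, which is lower on the array labelled ago2-1 in both years (−4.94 and −1.66). DREB1B (LOC4347618) had 10.24 and 7.64 in 2013 and 7.68 and 6.87 in 2014 (−2.60 and −0.80). For both of these genes the WT array was the higher of its pair in each year, by more in 2013. DREB1E (LOC4336721) had 7.35 and 5.38 in 2013 and 5.38 and 5.80 in 2014 (−1.96 and 0.42). DREB1A (LOC4347620) had 7.29 and 5.85 in 2013 but 6.08 and 8.05 in 2014, so its difference turned from −1.44 to 1.97. DREB1B and DREB1A have 1 gene between them in the RefSeq order. DREB2D was dim on both arrays (4.04 and 1.93), and DREB2A (−0.58), DREB1C (−0.26) and DREB2B (0.29) were under 2-fold apart.

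Of 6 WRKY factors, which bind W-box promoters in defence, 2 were lower and 1 was higher. WRKY71 (LOC4328512), a factor tied to defence and cold in rice, had 10.83 on the WT array and 7.77 on the array labelled ago2-1 in 2013, and 7.04 and 8.36 in 2014 (−3.06 and 1.32). Its other probe set gave −2.51 in 2013 and 0.04 in 2014, so the 2013 difference was on both probe sets and the opposite one of 2014 was not. WRKY24 had 6.62 and 4.34 in 2013 and 4.75 and 4.46 in 2014 (−2.28 and −0.29). WRKY62 was the higher one, at dim levels of 2.83 and 4.02. Of 8 NAC factors none was lower and NAC068 was higher, with 7.57 and 8.83 in 2013 and 8.04 and 8.88 in 2014 (1.25 and 0.84). Neither of the 2 measured ERF and other AP2 factors was 2-fold apart. Among 14 zinc finger stress proteins 1 was lower, SAP17, with 10.05 and 8.85 in 2013 and 8.40 and 8.32 in 2014 (−1.20 and −0.08).

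Calcium signalling was represented by 77 measured sensors and kinases, of which 11 were lower and 1 was higher, with a median of −0.05. The calmodulin-like CML proteins, small calcium sensors, made up most of these: 8 of 23 were lower and 1 was higher, with a median of −0.60. CML31 (LOC4325408) had 10.52 and 6.81 in 2013 and 5.72 and 5.19 in 2014, a 13.1-fold difference in 2013 (−3.71) and −0.53 in 2014. CML27 (LOC4332731) had 11.34 and 8.45 in 2013 and 8.96 and 8.28 in 2014 (−2.89 and −0.69). Both stood highest on the WT array of 2013. CML10 had 12.36 and 10.48 in 2013 and 12.15 and 11.59 in 2014 (−1.87 and −0.55). CML15 had 10.55 and 8.73 in 2013 and 8.86 and 8.98 in 2014 (−1.82 and 0.12). CML18 (−1.15) and CML4 (−1.01) lay closer to the limit, CML32 and CML24 were lower at dim levels, and CML29 was just past it on the higher side (1.02).

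The calmodulins themselves were not apart, and all 3 lay between −0.08 and −0.01. Among 20 calcium-dependent protein kinases 2 were lower. CPK21 (LOC4346187) had 7.97 and 4.93 in 2013 and 4.73 and 5.68 in 2014 (−3.03 and 0.95), and CPK4 (LOC4328155) had 10.65 and 8.66 in 2013 and 8.74 and 8.70 in 2014 (−2.00 and −0.04). Of 24 CIPK kinases, which work with CBL sensors, CIPK25 was lower (−1.05), and none of the 7 CBL genes was 2-fold apart. Of 16 MAP kinases 2 were lower and none was higher. MPK5 (LOC4332475), a kinase of the rice stress and defence response, had 10.67 and 8.33 in 2013 and 8.66 and 8.61 in 2014 (−2.34 and −0.05). MPK7 had 9.69 and 8.35 in 2013 and 9.34 and 9.03 in 2014 (−1.34 and −0.31).

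Both trehalose-6-phosphate phosphatases that have been studied for stress tolerance in rice stood high on the WT array of 2013. These enzymes remove the phosphate from a sugar signal, and 2 of 8 measured genes were lower. TPP1 (LOC4330221) had 11.50 and 7.69 in 2013 and 9.08 and 8.30 in 2014, a 14-fold difference in 2013 (−3.81) and −0.78 in 2014. TPP7 (LOC4346885) had 11.64 and 8.80 in 2013 and 9.19 and 8.57 in 2014 (−2.84 and −0.62). In each year the WT array was the higher one for both genes, by under 2-fold in 2014.

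Genes around abscisic acid, the hormone of drying and seed maturation, were mostly under 2-fold apart. Of 17 measured genes of its synthesis, breakdown and signalling 1 was lower and 16 were under 2-fold apart, with a median of 0.04. ABA8OX1 (LOC9269675), an 8′-hydroxylase that breaks abscisic acid down, had 9.0 and 6.20 in 2013 and 8.09 and 7.96 in 2014 (−2.80 and −0.13). Of 10 SAPK kinases of the same pathway none was 2-fold apart. Of 56 protein phosphatases 2C, a family that includes the brakes on abscisic acid signalling, 5 were lower, 2 higher and 49 under 2-fold apart. PP2C29 (LOC4332004) had 9.77 and 6.5 in 2013 and 6.61 and 6.37 in 2014 (−3.26 and −0.23). PP2C35 had differences of −1.98 in 2013 and −0.22 in 2014, and BIPP2C2 (−1.22), PP2C15 (−1.11) and PP2C32 (−1.06) followed. PP2C59 (LOC4341949) was on the other side, with 5.78 and 8.27 in 2013 and 7.08 and 7.34 in 2014 (2.49 and 0.26), and PP2C51 lay just past the limit (1.06).

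Most RAB dehydrins ran opposite to the minority of jasmonate and calcium genes that were lower. Of 5 RAB dehydrins, water-binding proteins that follow abscisic acid, 4 were higher on the array labelled ago2-1 in 2013 and none was lower, with a median of 1.63 against 0.31 in 2014. RAB16C (LOC4350452) had 7.12 on the WT array and 9.71 on the array labelled ago2-1 in 2013, and 8.5 and 8.81 in 2014 (2.59 and 0.31). RAB21 (LOC4350454) had 6.99 and 9.47 in 2013 and 9.28 and 9.95 in 2014 (2.48 and 0.66), and its second probe set gave 2.97 in 2013. RAB16B had 7.03 and 8.66 in 2013 and 7.48 and 8.28 in 2014 (1.63 and 0.81), and RAB25 had 7.23 and 8.40 in 2013 (1.17). On the scaled levels RAB21 and RAB16C were lowest on the WT array of 2013, by 1.66 and 0.73 under the next array, and both were highest on the array labelled ago2-1 of that year. RAB16D, the remaining one, was dim (5.27 and 5.06). RAB16D, RAB16C, RAB16B and RAB21 are near each other in the RefSeq order, with 0, 2 and 0 genes between successive pairs, and their probes may share transcripts, which was not tested.

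**Figure D4:**
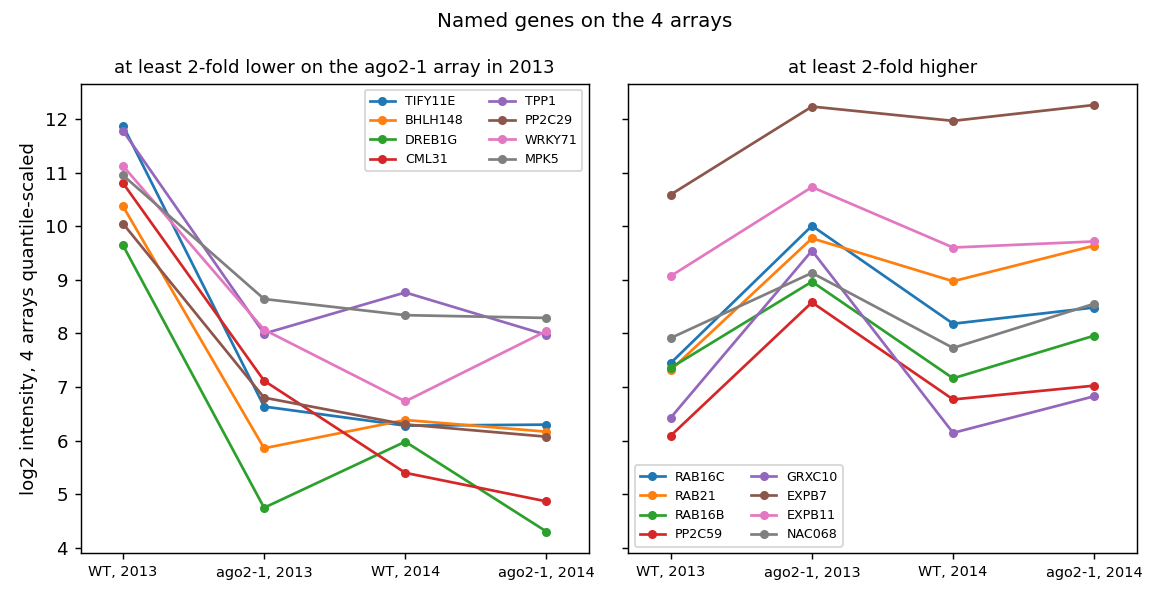
Level (y axis, log2 intensity after quantile scaling of the 4 arrays) of 8 genes that were at least 2-fold lower (left) and 8 that were at least 2-fold higher (right) on the array labelled ago2-1 in 2013, on each of the 4 arrays (x axis, 1 point per array, lines join the points of a gene). The genes on the left stand high on the WT array of 2013 alone, while those on the right are low on the WT array of 2013, high on the array labelled ago2-1 of that year, or both.

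The rest of the list of late embryogenesis proteins, dehydrins and salT did not follow the 4 higher RAB dehydrins. LIP9 of that list, for example, had 11.46 and 11.49 in 2013 (0.03). The late embryogenesis gene EM, outside the list and picked after its values were seen, was higher in 2013 (2.0) and had 0.10 in 2014. Of 17 measured genes of that list 3 were lower and 4, all RAB dehydrins, were higher. The 3 lower ones are not of the late embryogenesis abundant kind. The salt-induced lectin salT (LOC4326471) had 10.07 on the WT array and 7.38 on the array labelled ago2-1 in 2013, but 4.45 and 7.40 in 2014, so its difference turned from −2.69 to 2.95. BURP17, a BURP-domain protein, had 7.77 and 5.54 in 2013 and 4.53 and 6.39 in 2014, which also turned, from −2.24 to 1.86. RAFTIN1 (LOC4345929), a BURP protein of the tapetum in anthers, had 9.02 and 6.88 in 2013 and 8.47 and 6.67 in 2014, and was lower in both years (−2.14 and −1.80). For salT and BURP17 the 2 WT arrays were the highest and the lowest of the 4, and the arrays labelled ago2-1 lay between them.

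Most heat and defence genes were under 2-fold apart. Of 47 heat shock genes 5 were lower, 1 was higher and 41 were under 2-fold apart, with a median of −0.17. Among the 20 heat stress transcription factors HSFB1 had 6.47 and 4.91 in 2013 (−1.56), HSFB2A 8.98 and 7.51 (−1.47) and HSFA3 9.02 and 7.58 (−1.44), while HSFA2C was higher, with 6.86 and 7.97 (1.11). All 4 of these were under 2-fold apart in 2014, from −0.09 to 0.76. A second probe set of HSFA2C ran the other way in 2013 (−0.82), so its higher level rests on 1 probe set. Among the 19 small heat shock proteins, chaperones that bind unfolded proteins, HSP17.8 (−1.15) and HSP16.9B (−1.01) lay just past the limit.

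Of 20 defence proteins 5 were lower, 1 was higher and 14 were under 2-fold apart, with a median of −0.46. The chitinase CHT1 (LOC4342115) had 6.43 and 4.93 in 2013 and 4.56 and 3.31 in 2014 (−1.51 and −1.25), and CHT7 had 10.32 and 9.03 in 2013 and 10.85 and 9.15 in 2014 (−1.29 and −1.70). These chitinases, enzymes that cut fungal cell walls, were thus lower in both years, CHT1 at dim levels in 2014. Of 10 measured ones 3 were lower in 2013, among them CHT6 at dim levels (3.73 and 2.62). NPR4, of the salicylic acid receptor family, had 6.96 and 5.49 in 2013 and 6.28 and 6.46 in 2014 (−1.47 and 0.19). The xylanase inhibitor RIXI had 7.83 and 6.40 in 2013 and 5.46 and 6.72 in 2014, so its difference turned from −1.43 to 1.26. PBZ1, a pathogenesis-related protein, was higher in both years, with 6.87 and 8.24 in 2013 and 7.74 and 9.32 in 2014 (1.37 and 1.59). None of 16 diterpene phytoalexin genes was 2-fold apart, of which 14 were dim, so a difference in them was hardly measurable.

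Ethylene, redox and cell wall genes gave mixed counts. Of 11 ethylene genes 1 was lower: ACO1, an oxidase that makes ethylene, had 11.18 and 9.89 in 2013 and 9.38 and 9.17 in 2014 (−1.29 and −0.21). Of 48 oxidative stress genes 3 were lower and 2 higher, and all 9 ascorbate peroxidases and catalases, which remove hydrogen peroxide, lay within −0.27 and 0.38. The glutaredoxins, small thiol reductases, went both ways. GRXC10 (LOC4351046) had 6.12 and 9.24 in 2013 and 6.45 and 7.14 in 2014 (3.12 and 0.69), and GRXC1 had 4.04 and 6.22 in 2013 (2.18). GRXS5 had 11.66 and 9.73 in 2013 and 8.61 and 9.17 in 2014 (−1.94 and 0.56), and GRXS9 was lower by −1.19. The metallothionein MT1A had 8.45 and 6.71 in 2013 and 4.84 and 6.28 in 2014, so that its difference turned from −1.74 to 1.45.

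Of 30 cell wall genes 1 was lower (3.33%, near the 3.18% of all genes) and 3 were higher, beside 1.1% of all genes. Of the 30, 12 were dim. XTH8, which cuts and joins xyloglucan, had 11.31 and 9.99 in 2013 and 11.31 and 11.01 in 2014 (−1.32 and −0.30). The 3 higher genes were expansins, proteins that loosen walls in growing cells: EXPB11 with 8.76 and 10.43 (1.67), EXPB7 with 10.30 and 11.91 (1.61) and EXPA29 with 7.34 and 8.58 (1.24). None of 29 measured expansins was lower by the probe set used for the gene. For EXLA2 that probe set gave −0.67, while a second one lay just past the limit (−1.02).

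Set side by side by year, the 56 lower listed genes had a median difference of −1.85 in 2013 and −0.08 in 2014. In 2014, 45 of them were under 2-fold apart, 5 were lower (DREB1G, RAFTIN1, CHT1, CHT7 and HSP16.9B) and 6 were higher (salT, DREB1A, BURP17, MT1A, WRKY71 and RIXI). On the scaled levels the WT array of 2013 was the highest of the 4 for 53 of the 56 genes, all but DREB1A, HSFB2A and HSP16.9B, and by 2-fold for 41, and the array labelled ago2-1 of 2013 was the lowest for 16. Since the genes were taken for a higher level on the WT array of 2013, its place at the top is partly set by that choice. Among all 910 lower probe sets the WT array of 2013 was highest on 93.0%, and by 2-fold on 68.7%. The listed genes lie near these shares, so this order is not particular to them. Of the 17 higher listed genes 15 were under 2-fold apart in 2014 and 2, TIFY5 and PBZ1, were again higher. Their median was 1.61 in 2013 and 0.38 in 2014. For 13 of the 17 the WT array of 2013 was the lowest of the 4, and for 13 the array labelled ago2-1 of 2013 was the highest. The choice of these genes favours that order too. Among all 424 higher probe sets the WT array of 2013 was lowest on 74.5%, and the array labelled ago2-1 of 2013 highest on 262.

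**Figure D5:**
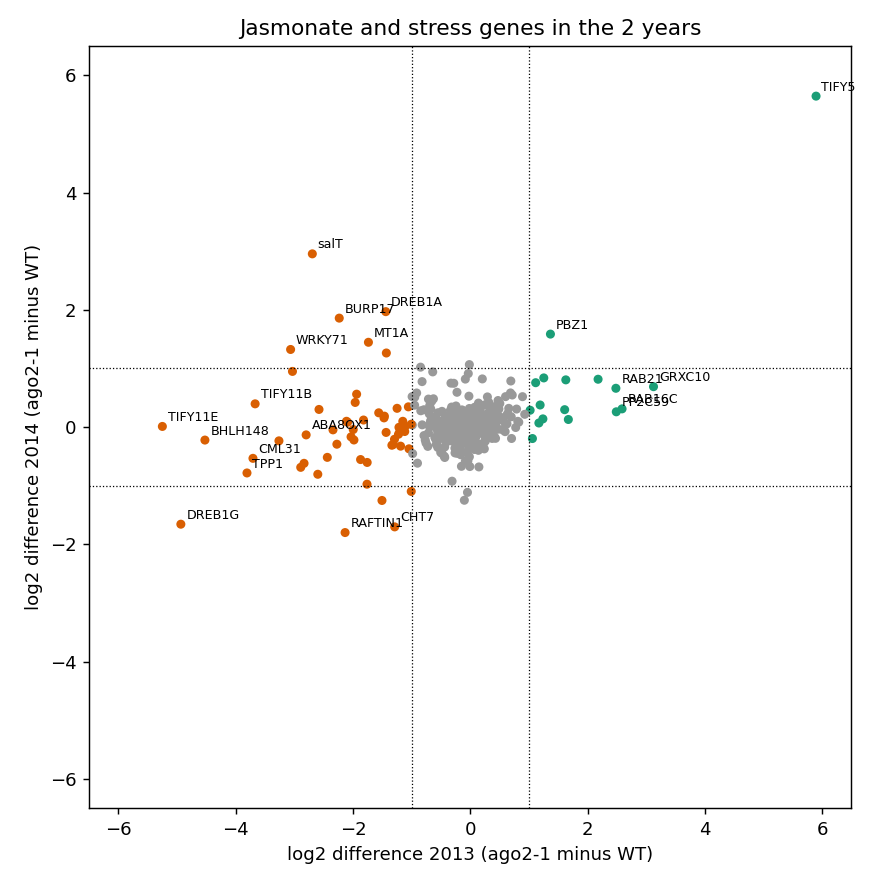
Difference of the 443 listed jasmonate and stress genes in 2013 (x axis) and 2014 (y axis), in log2, array labelled ago2-1 minus WT array of the same year, with 1 point per gene and dotted lines at 2-fold. Most coloured points, past 2-fold in 2013, lie between the horizontal lines, as for TIFY11E at −5.25 and 0.01, while TIFY5 lies far out in both years and salT lies in opposite directions.

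Beyond the lists, the genes with the largest differences were mostly without a symbol. LOC4349792 had 8.61 and 2.17 in 2013 and 3.11 and 2.72 in 2014 (−6.43 and −0.40), and LOC4325751 had 8.27 and 3.12 in 2013 and 3.12 and 3.07 in 2014 (−5.15 and −0.06). LOC4335417 had 12.08 and 7.03 in 2013 and 7.08 and 7.15 in 2014 (−5.05 and 0.07). These genes shared the pattern of TIFY11E, high on the WT array of 2013 alone. LOC107279825 did not: it had 8.51 and 2.27 in 2013 and 9.93 and 4.0 in 2014, lower in both years (−6.23 and −5.93). BC1L9 (LOC4349011), of the COBRA-like family of cell surface proteins, had 9.55 and 4.46 in 2013 and 4.87 and 4.31 in 2014 (−5.09 and −0.56). MYB2 (LOC4332651), a MYB transcription factor, had 6.39 and 1.45 in 2013 and 2.81 and 2.66 in 2014 (−4.94 and −0.15). The other 3 unnamed genes among the 12 lowest were LOC4345815 (−4.68 in 2013, 1.22 in 2014), LOC4335780 (−4.67) and LOC4347695 (−4.52).

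The 8 genes with the largest differences upward were more often apart in both years. LOC4331398 had 3.31 and 11.88 in 2013 and 3.14 and 11.98 in 2014 (8.56 and 8.85). LOC4340325 had 5.15 and 10.06 in 2013 and 4.91 and 10.79 in 2014 (4.91 and 5.88). With TIFY5, LOC4335658 (3.79 and 2.33) and LOC4327182 (3.72 and 3.25), 5 of the 8 were past 2-fold in both years. LOC4351498 (3.73 and 0.23), LOC4324175 (3.59 and 0.27) and LOC4339527 (3.42 and −0.46) were not. Of the 12 lowest genes, by comparison, 2 were at least 2-fold lower in both years, LOC107279825 and DREB1G.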

How the data were processed

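Biotin-labelled RNA of young panicles was hybridised to 4 Affymetrix rice arrays, 1 for each genotype in each year. The authors deposited linear intensities, 1 per probe set. Per the submitters' processing notes they were made with RMA, of unstated version and settings. The distributions of the 2 years do not coincide, so each year appears to have been normalized by itself. The extraction protocol in the labels describes human brain and was disregarded. The number of arrays limits the precision, and with 1 array per group no test was run.

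Levels are log2 of the intensities with no pseudocount, computed with Python 3.11.15, numpy 2.4.6 and pandas 2.3.3. Of 57194 probe sets, 22436 have 1 gene in the platform annotation, 95 have several and 34663 have none listed. All 17905 genes matched the RefSeq table of assembly ASM3414082v1 by gene number, from which symbols and gene order were taken. A gene is represented by its probe set with the highest mean level in 2013. The counting was tested on simulated data.

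The comparison, the 20 lists and the rule for named genes were chosen with earlier results of these data known. The rule takes, per list, up to 8 genes past 2-fold with a level of at least 6 on the brighter array, largest first, and over all genes the 12 lowest and 8 highest. Genes named outside it (dim ones, those under 2-fold and those given as contrast) were chosen after their values were seen. Alternatives were other fold limits, quantile and median scaling, a floor or an added constant of 32, a level minimum and other choices of probe set.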

Additional observations from a re-analysis of the deposited data

Results flagged for a closer look

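Some genes lay in opposite directions in the 2 years, by at least 2-fold in each, with 1 array per genotype and year. The values below are the difference of 2014 minus that of 2013, in log2, and none of these turns was tested. It was 5.65 for the lectin salT, which had −2.69 in 2013 and 2.95 in 2014. For the BURP protein BURP17 it was 4.09 (−2.24 and 1.86), and for the transcription factor WRKY71 4.39 (−3.06 and 1.32), whose other probe set had 0.04 in 2014. For the cold-response factor DREB1A it was 3.41 (−1.44 and 1.97), and for the metallothionein MT1A 3.18 (−1.74 and 1.45). The xylanase inhibitor RIXI had 2.70 (−1.43 and 1.26). Outside the lists LOC4345815, without a symbol, had 5.90 (−4.68 and 1.22).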

How the results depend on the processing

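Of the 49 alternative values 34 were within 1.5 times those reported, while 15 moved further. Counts cannot change sign, so only the median of the 42 jasmonate genes could change direction, and it stayed below 0. Among the 34, a floor of 32 gave 739 lower and 288 higher probe sets, and 52 lower in both years. A level minimum of 6 on the brighter array gave the same counts. At a 2-fold limit these settings pick the same probe sets, so they are not separate checks of the counts. With 32 added to each intensity, 562 probe sets were lower and 197 higher in 2013, in place of 910 and 424, and 35 in place of 73 were lower in both years. At a 1.5-fold limit these counts were 2370, 1853 and 324, and at a 3-fold limit 356, 134 and 20. Of the 443 listed genes 88 were lower and 35 higher at 1.5-fold, and 32 and 9 at 3-fold, in place of 56 and 17. The median of the 42 jasmonate genes, −0.32, was −0.046 with intensities below 32 raised to 32 and −0.13 with 32 added. A higher or lower fold limit takes in fewer or more probe sets by construction. A floor or an added constant shrinks the differences of dim probe sets.

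No paired analysis was possible because the 2013 comparison holds 1 pair of arrays. A fit of genotype and year over the 4 arrays, which would leave 1 residual degree of freedom, was not run, since 2014 served only as a check. With no replicate and no background measure in the files, array error and the detection of dim probe sets have no estimate.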

Other observations

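A few gene groups were looked up after the differences had been seen, so their members are a description only. The background of their counts is 3.18% lower and 1.1% higher over all genes. Of 8 measured MYB factors 2 were lower on the array labelled ago2-1 in 2013, MYB2 and MYB4. MYB4 (LOC4336407), a factor of the cold response, had 11.83 on the WT array and 8.45 on the array labelled ago2-1 in 2013, and 8.67 and 8.28 in 2014 (−3.37 and −0.39). Of 19 enzymes of the phenylpropanoid pathway, which leads to lignin and defence phenolics, 3 were lower. The ligase 4CL5 (LOC4345717) had 9.77 and 6.53 in 2013 and 6.68 and 6.49 in 2014 (−3.24 and −0.18), PAL06 had 6.90 and 4.75 in 2013 (−2.15), and HCT2 had 9.98 and 8.70 (−1.28). Of 4 elicitor-response genes 3 were lower in 2013. The chitin-induced GRAS genes CIGR2 and CIGR1 had −1.48 and −1.23, and EL2, a cell cycle inhibitor induced by elicitors, had −1.34, with 12.30 and 10.96 in 2013 and 10.24 and 10.87 in 2014. The calcium pump gene ACA7 had 10.03 and 5.98 in 2013 and 5.79 and 5.72 in 2014 (−4.06 and −0.07).

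Growth genes were mostly under 2-fold apart in 2013. None of 32 kinesins was past 2-fold, 1 of 19 cyclins was lower (CYCP2-1, −1.20), and 1 of 29 cellulose synthase and related genes was lower (CESA6, −1.16). The shares of the cyclins (5.26%) and cellulose synthases (3.45%) lie near the 3.18% of all genes. Of 26 Aux/IAA genes, repressors of the auxin response, 2 were lower (IAA6 and IAA12) and 1 was higher (IAA9, 1.25 in 2013 and 1.11 in 2014). The late embryogenesis gene EM, picked after its values were seen, had 5.49 and 7.49 in 2013 (2.0) and a difference of 0.10 in 2014. MFT1, picked in the same way, had 7.14 and 8.95 in 2013 (1.82) and 0.01 in 2014. The sucrose transporter SUT1 had 7.62 and 9.47 in 2013 and 7.97 and 9.05 in 2014, and was higher in both years (1.85 and 1.08).

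Lower genes lay beside each other in the RefSeq order more often than other genes lay beside a lower one. Of the 570 lower genes 79 (13.9%) had a lower gene as the next measured one on either side, against 5.95% of other genes, and for the 197 higher genes these values were 5.58% and 2.14%. Whether neighbours share probes or are copies of one another was not examined over this set.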
